A study of Homo sapiens with 59 samples.

Results

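A set of 35 genes of ribosome biogenesis and the nucleolus was followed across 20 treatment groups of HepG2 cells, a human liver cancer cell line with hepatocyte features. The 35 members were listed by name and looked up by Ensembl identifier among the 60675 rows of the gene table; 16641 genes passed the filter on low counts, and all 35 members were among them. By role they comprised 4 genes of RNA polymerase I and its factors, 3 genes of the box C/D snoRNP core, 4 genes of the box H/ACA snoRNP and its chaperone, 4 abundant nucleolar proteins, 10 small subunit assembly factors and 10 large subunit assembly factors. The box C/D core here means the members NOP56, NOP58 and FBL. SNU13, another protein of that core, is not a member and was counted among the other snoRNP genes. The study treated cells for 24 h with water extracts of 6 digestive herbal medicines at 3 doses each, with the PI3K inhibitor wortmannin at 10 uM, or with vehicle. Coptidis Rhizoma was given at 210, 42 and 8.4 ug/mL. At 500, 100 and 20 ug/mL were given Zizyphi Fructus, Scutellariae Radix, Pinelliae Tuber, dried ginger, labelled Zingiberis Rhizoma, and fresh ginger, labelled Zingiberis Rhizoma Recens. The study's text says that doses were set from the concentration that inhibited cells by 20% where that was under 500 ug/mL. Vehicle is 0.1% DMSO in the sample labels and 2% DMSO in the study's text, and the labels give no DMSO content for the other groups. Each group held 3 libraries except Pinelliae Tuber 20 ug/mL, with 2, for 59 in all. Nothing in the labels says that replicates were separate cultures, so the p-values measure the spread between these libraries, which may be technical.

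Ribosome biogenesis begins in the nucleolus, where RNA polymerase I transcribes the ribosomal RNA precursor. Box C/D and box H/ACA snoRNPs guide its ribose methylation and pseudouridylation, and successive sets of assembly factors fold, cut and escort the pre-ribosomal particles of the small and large subunits. The pathway is known to depend on growth signalling through PI3K, AKT and mTOR and on the transcription factor MYC, which binds the E-box motif in many of these genes' promoters.

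Library totals ran from 21582603 to 31392069 counts with a median of 25834162. The replicates were close: the biological coefficient of variation of the fit over all genes was 4.41%. Log2 changes of about 0.1 could pass the test in some genes, and an uncalled member may still have changed. Of 10 hepatocyte markers all 10 passed the filter, and their summed level lay between 26857 and 51868 CPM (counts-per-million) in single libraries, against 2.36 to 5.28 CPM for 4 endothelial markers and 31.3 to 85.3 CPM for 6 fibroblast and stellate cell markers. The 6 leukocyte markers summed to between 1093 and 2709 CPM while the pan-leukocyte gene PTPRC averaged 0 CPM in the vehicle group. As a measure of distance between libraries of a group, the mean over genes of the chi-square of their counts (1 where they differ by sampling noise alone) was lowest in wortmannin, at 1.93. Replicate 1 of dried ginger 500 ug/mL (12.63 and 17.46 from the others of its group), replicate 3 of Pinelliae Tuber 100 ug/mL (14.45 and 14.59) and replicate 1 of Zizyphi Fructus 20 ug/mL (15.45 and 32.35) stood apart. Counts of members called were also taken without these 3 libraries, but counts in the other lists were not. The strand setting of the counts is not given in the sources used here, and 16 members share exonic bases with a gene on the opposite strand, among them UBTF, RRP12, MYBBP1A, BRIX1, WDR12, PNO1 and UTP15, so reads of the partner gene may be part of their values. The labels put all 59 libraries in the same batch, named A. Library titles open with A1 for vehicle, 1 for wortmannin, 2 for the gingers, 3 for Scutellariae and Pinelliae and 4 for the Zizyphi and Coptidis groups. What that code stands for is not given, and in every comparison with vehicle it cannot be told apart from the treatment. For that reason doses of 1 extract, which share it, were also compared with each other. All 19 comparisons with vehicle share the same 3 vehicle libraries. In bulk RNA, fewer cells of a type and less RNA per cell cannot be told apart.

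In vehicle cells the members covered a wide range of levels per kilobase of exon. The histone chaperone and nucleolar protein NPM1 (nucleophosmin) stood at 389 CPM per kb and NCL (nucleolin), an RNA-binding protein of the nucleolus, at 250 CPM per kb. The box C/D core proteins NOP56 and FBL (fibrillarin, the methyltransferase) followed at 99.0 and 76.0 CPM per kb. At the other end were LAS1L, a subunit of a nuclease complex that cuts a spacer out of the rRNA precursor, at 7.07 CPM per kb and the small subunit factor UTP15 at 6.51 CPM per kb. Averaged over the 35 members as a geometric mean, vehicle libraries lay at 107 CPM ± 1.33 (SD, n = 3). The lowest group was wortmannin at 83.7 CPM ± 0.939 (SD, n = 3), with libraries between 82.9 and 84.7 CPM, well under the vehicle range of 106.0 to 108.6 CPM. Next came Pinelliae Tuber 500 ug/mL at 102.9 CPM ± 1.49 and Zizyphi Fructus 500 ug/mL at 103.9 CPM ± 0.428 (both SD, n = 3). The highest was Scutellariae Radix 100 ug/mL at 118.0 CPM ± 0.464 (SD, n = 3), and Coptidis Rhizoma at 42, 210 and 8.4 ug/mL and Scutellariae Radix 20 ug/mL followed within 115.2 to 116.2 CPM, 4 neighbours that differed by less than the sum of their SDs. The summed level, in which NCL and NPM1 weigh most, gave another order: Scutellariae Radix 500 ug/mL was next to wortmannin at 6352 CPM ± 71.0 against 6869 CPM ± 70.1 in vehicle (both SD, n = 3), although its geometric mean was 109.1 CPM.

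**Figure D1:**
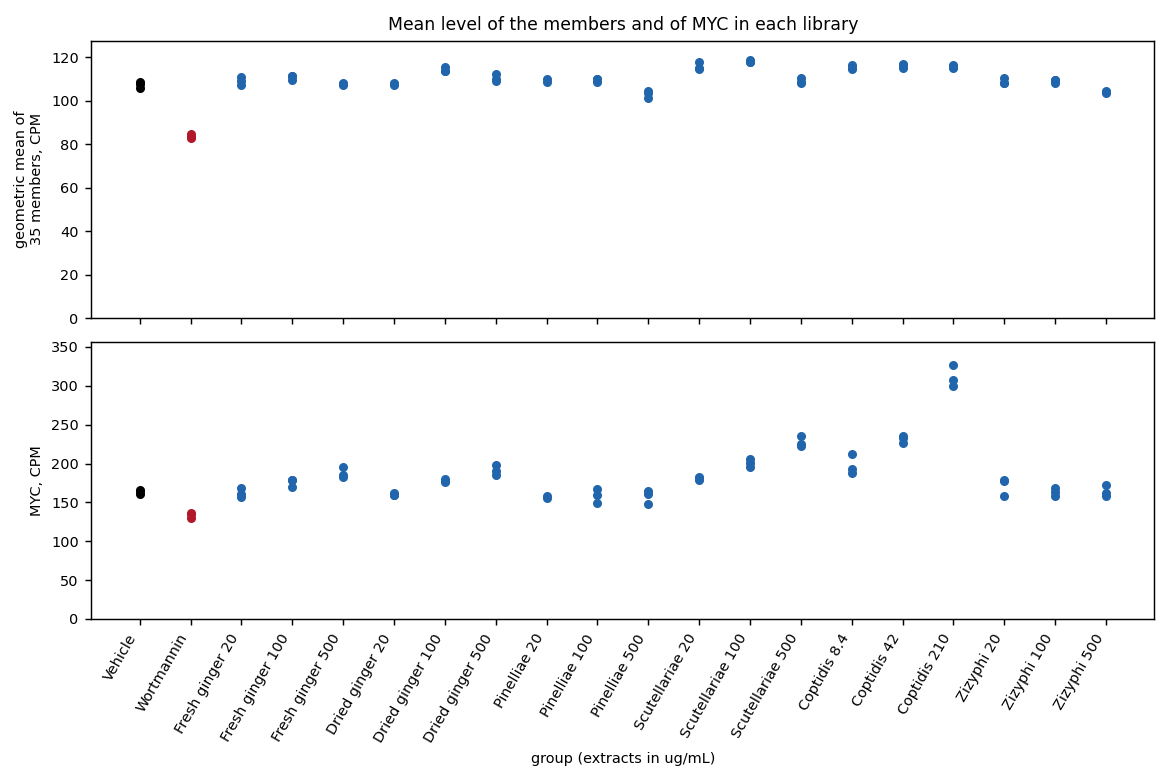
Geometric mean of the 35 members (upper panel) and level of MYC (lower panel) in each library (points), both in TMM-scaled CPM on linear axes from 0, for vehicle (black), wortmannin (red) and the extracts at their doses in ug/mL (blue). The 3 wortmannin libraries lie between 82.9 and 84.7 CPM in the upper panel, below every other library, and MYC reaches 299 to 327 CPM at Coptidis 210 ug/mL.

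Promoter windows from RefSeq (build GRCh38.p14, 250 bases before to 50 bases from the annotated start) matched 29 members. The E-box CACGTG, which reads the same on both strands, occurred in 10 of the 29 (34.5%), against 7.4% of all 27305 windows, 10.0% of the 11311 windows of genes tested here and 11.5% of the 6120 of those with at least 25 CpG dinucleotides, the median CpG count of the members. An ETS-type motif, CCGGAAG or its reverse complement CTTCCGG, occurred in 11 of 29 (37.9%) against 10.7%, 18.8% and 20.8% in the same sets. The E-box stretches of 5 members are shown, those of the 3 E-box members with the highest and the 2 with the lowest change at the top Coptidis dose, written 5′ to 3′ on the gene's strand with the E-box in capitals.
BYSL: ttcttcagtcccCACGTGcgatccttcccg
NOP2: aggtccggattgCACGTGgagggccgc
UTP4: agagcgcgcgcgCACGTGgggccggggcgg
FBL: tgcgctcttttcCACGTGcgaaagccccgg
UTP20: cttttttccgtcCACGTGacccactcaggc
The BYSL stretch lies at chr6:41921515-41921544 (plus strand), that of NOP2 at chr12:6568242-6568268 (minus), that of UTP4 at chr16:69132621-69132650 (plus), that of FBL at chr19:39846356-39846385 (minus) and that of UTP20 at chr12:101280083-101280112 (plus). Counting the annotated start as 0, the first base of the motif is at 28 in BYSL, 35 in NOP2, -16 in UTP4, 6 in FBL and -10 in UTP20. A match describes these letters only; no binding was measured.

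Wortmannin lowered nearly every member. At 10 uM, 34 of 35 members fell and none rose, where 16% of all genes tested fell and 32.2% changed either way (edgeR's quasi-likelihood test, Benjamini-Hochberg adjusted over 16641 genes). The median log2 change of the members was -0.37, against 0.02 for all genes tested, and their range was -0.54 to -0.13. Wortmannin and vehicle libraries did not overlap for any of the 35 members, as for 48.5% of all genes tested. POLR1A, the largest subunit of RNA polymerase I, was the member not called, at -0.13 (SE 0.057, adjusted p = 0.0775).

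The largest fall was that of GAR1, a structural protein of the box H/ACA snoRNP. GAR1 measured 18.4, 22.6 and 19.5 CPM with wortmannin and 29.6, 30.0 and 28.1 CPM in vehicle, a log2 change of -0.54 (SE 0.069, adjusted p = 1.13e-08). The treated libraries of GAR1 varied more than the vehicle ones but all lay below them. NOP2, the methyltransferase of the large subunit's rRNA, measured 60.7, 60.9 and 61.7 CPM against 88.8, 86.6 and 84.6 CPM, and fell by 0.50 on the log2 scale (SE 0.041, adjusted p = 2.7e-14). NOP16, another large subunit factor, measured 31.0, 30.3 and 29.9 CPM against 44.6, 42.5 and 41.1 CPM, and fell by 0.49 (SE 0.060, adjusted p = 3.3e-09). In both, each treated library was far below each vehicle library.

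Every role group took part. Besides POLR1A, the RNA polymerase I group ran to UBTF, the factor that opens the rDNA, which fell by 0.30 on the log2 scale. In the box C/D core members the changes were -0.30 (FBL) to -0.44 (NOP56), and in the box H/ACA group -0.19 (NHP2) to -0.54 (GAR1). SNU13, outside the member list, was at -0.10 (adjusted p = 0.146). Among the abundant nucleolar proteins NPM1 fell by 0.41 and GNL3 (nucleostemin) by 0.35. The small subunit factors ran from NOB1, the nuclease that makes the mature end of the small subunit's rRNA, at -0.28 to TSR1, a factor of the late cytoplasmic particle, at -0.46, and the large subunit factors ran from LAS1L at -0.14 to NOP2. MYC measured 136, 136 and 129 CPM against 164, 160 and 166 CPM and fell by 0.29 (adjusted p = 8.5e-07).

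Genes of the same pathway outside the member list moved the same way with wortmannin. Of 139 other genes in the polymerase I, snoRNP, assembly and exosome lists, 115 fell and 1 rose, with a median of -0.25. The genes that fell most in each of 4 of these lists, 2 a list, were POLR1G at -0.65 and POLR1C at -0.54, both RNA polymerase I subunits, the helicase DDX21 at -0.57, LTV1 at -0.50, PAK1IP1 at -0.52, MAK16 at -0.48, NOPCHAP1 at -0.51 and TCOF1 (treacle) at -0.49; the nucleolar protein NOP53 rose by 0.22. Of 22 RNA polymerase III genes 9 fell, POLR3G (-0.63) most, and POLR3GL rose by 0.39. Nucleotide synthesis followed, with 13 of 17 genes lower and CTPS1 at -0.42. Cytosolic ribosomal proteins, the products that the pathway assembles, changed little: 9 of 79 fell, RPS26 (-0.23) most, and none rose, with a median of -0.06. The 10 hepatocyte markers summed to 50989 to 51868 CPM with wortmannin and 44494 to 45093 CPM in vehicle, and TTR rose by 1.02. The leukocyte markers summed to 1772 to 1869 CPM against 1399.7 to 1408 CPM, nearly all from LYZ, with CD68 at 0.39, CD14 at 0.64 and LYZ at 0.36 on the log2 scale, all called, and PTPRC and CD3E at 0 CPM in both groups. The endothelial markers summed to 3.62 to 4.23 CPM against 3.16 to 4.97 CPM (CDH5 rose by 1.01 from a mean of 0.312 CPM), and the fibroblast and stellate cell markers to 51.1 to 53.1 CPM against 49.4 to 53.8 CPM (COL1A1 fell by 1.01 from a mean of 0.739 CPM). The part of any of these in the result was not tested.

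**Figure D2:**
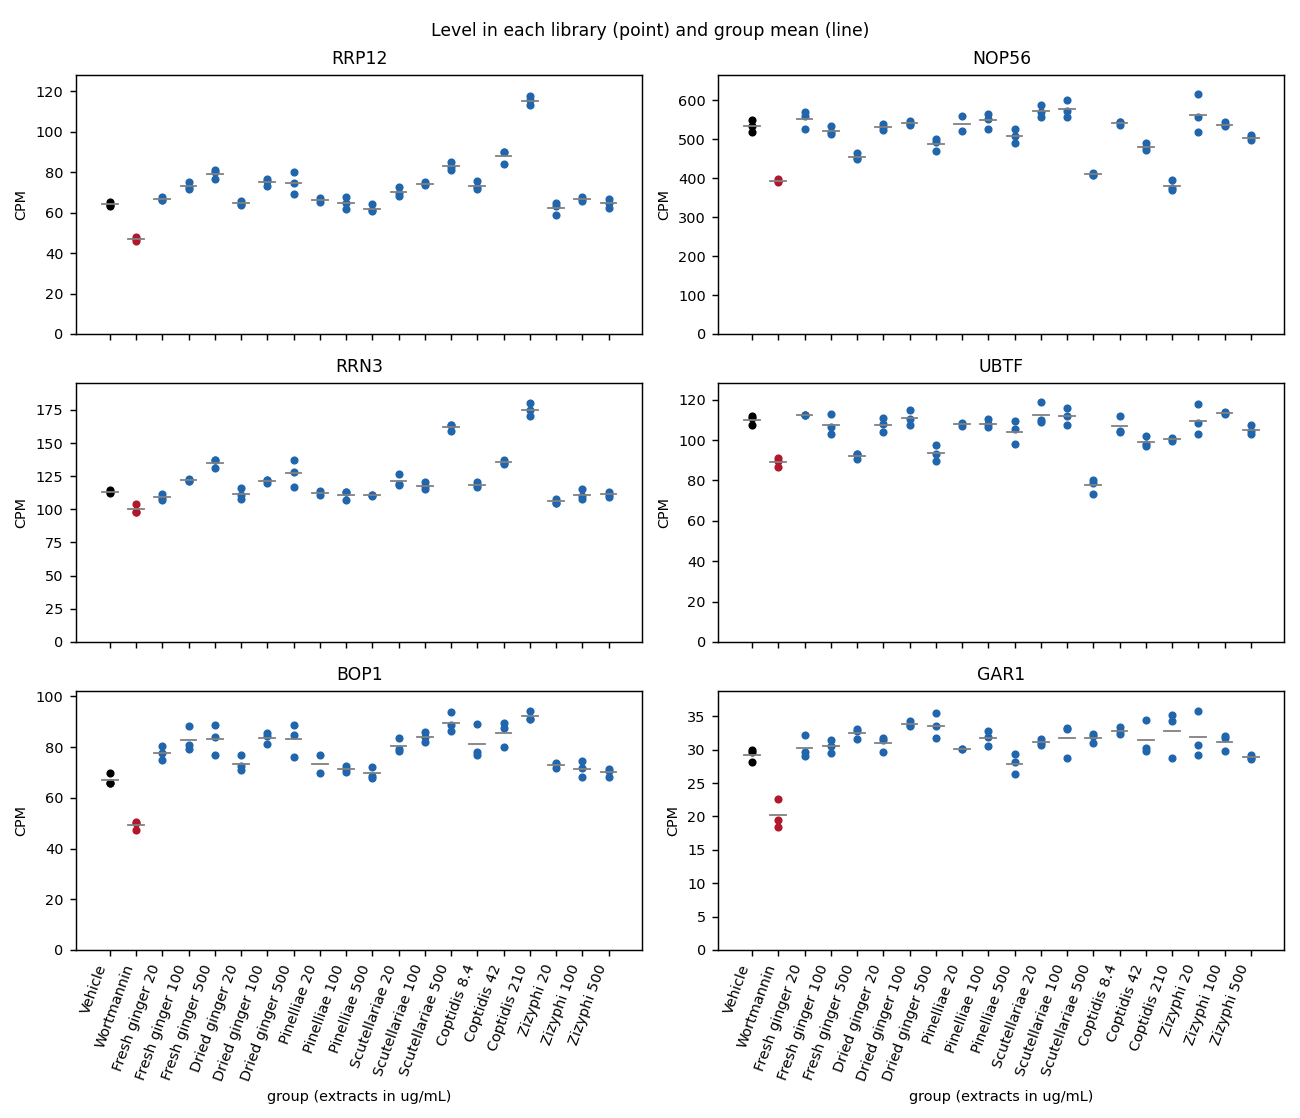
Level in each library (points) and group mean (lines) of RRP12, NOP56, RRN3, UBTF, BOP1 and GAR1, in TMM-scaled CPM on linear axes from 0, for vehicle (black), wortmannin (red) and the extracts at their doses in ug/mL (blue). RRP12 reaches 113 to 117 CPM at Coptidis 210 ug/mL against 63.2 to 65.2 CPM in vehicle, UBTF is lowest at Scutellariae 500 ug/mL, and GAR1 is lowest with wortmannin.

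Coptidis Rhizoma split the members. At 210 ug/mL, 20 members rose and 9 fell, which at 29 of 35 is to be read against 69.4% of all genes called either way (34.8% higher, 34.5% lower). The median was 0.16 and the range -0.49 to 0.85, the widest of the 19 comparisons with vehicle. Of the 10 small subunit factors 9 rose, of the 10 large subunit factors 6 rose and 2 fell, and all 3 box C/D core members fell. For 30 members (85.7%) the treated and vehicle libraries did not overlap, as for 72.9% of all genes tested. The split depended on the scaling: it was 13 higher and 14 lower when libraries were scaled by total counts alone and 16 higher and 14 lower with upper quartile scaling.

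RRP12 (chr10:97356358-97426076, minus strand, GRCh38), an export factor of pre-ribosomal particles, rose most. It measured 117, 113 and 116 CPM against 63.2, 63.9 and 65.2 CPM in vehicle, a log2 change of 0.85 (SE 0.038, adjusted p = 1.93e-25). RRN3 (TIF-IA), which recruits RNA polymerase I to the rDNA promoter, measured 180, 170 and 175 CPM against 115, 112 and 113 CPM, a change of 0.63 (SE 0.036, adjusted p = 4.11e-21). The 4 annotated RRN3 pseudogenes held 7.66% of the RRN3 family's counts in vehicle and 8.31% at this dose, so that reads split between copies are a limit on its value. BYSL (bystin), a small subunit factor, measured 68.3, 65.7 and 67.1 CPM against 46.4, 47.5 and 46.9 CPM and rose by 0.51 (SE 0.043, adjusted p = 3.78e-15). In each of the 3 the highest vehicle library was well under the lowest treated one.

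The 9 that fell were UBTF (-0.13), NOP56 (-0.49), NOP58 (-0.23), FBL (-0.40), NCL (-0.35), GNL3 (-0.14), UTP20 (-0.49), BRIX1 (-0.16) and LAS1L (-0.15). NOP56 went from 535 CPM ± 15.2 to 380 CPM ± 14.3 (SD, n = 3 each; adjusted p = 8.79e-16). UTP20, a large scaffold protein of the small subunit processome, went from 116 CPM ± 4.41 to 82.5 CPM ± 1.36 (SD, n = 3 each; adjusted p = 3.77e-08), and was the small subunit member that fell. In the box H/ACA group GAR1 rose by 0.17, its libraries overlapping those of vehicle, and NHP2 was at -0.11 (adjusted p = 0.105). MYBBP1A, a nucleolar binding partner of RNA polymerase I and p53, rose by 0.16 as the highest of the abundant nucleolar group, and NCL was its lowest. NOP2 led the large subunit factors at 0.46, with BRIX1 lowest.

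The gene for the transcription factor MYC measured 307, 327 and 299 CPM against 164, 160 and 166 CPM and rose by 0.93. Within the wider pathway 70 of 139 genes rose and 32 fell, with a median of 0.11. The extremes lay in the small subunit list, where RCL1 rose by 1.64 and UTP25 by 0.65 while MPHOSPH10 fell by 1.09 and RRP7A by 0.78. In the large subunit list EFL1, a GTPase of late maturation, rose by 1.18 and its partner SBDS by 0.85, and GNL2 fell by 0.48. POLR1D rose by 0.55 and TTF1 fell by 0.22. ZNHIT6 rose by 0.44 and TCOF1 fell by 0.50. Of 79 cytosolic ribosomal protein genes 65 rose and 2 fell, with a median of 0.23 against 0.00 for all genes tested. Total-count scaling moved the median of all genes by -0.12 at this dose. Values of the lists and of MYC were not taken with that scaling. Among purine and pyrimidine synthesis genes 11 of 17 fell, PRPS2 by 0.87, while IMPDH1 rose by 0.88. Of 12 genes of ribosomal stress and p53 output 9 rose, GDF15 by 4.11 and CDKN1A by 2.53, and SESN1 fell by 1.00.

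The hepatocyte markers summed to 26857 to 27954 CPM at this dose, under the vehicle range of 44494 to 45093 CPM, and transcripts of the mitochondrial genome took 11.7% to 13.1% of counts against 9.09% to 9.88% in vehicle. The part of either in the result was not tested.

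At 42 ug/mL, 19 members rose and 4 fell, against 46.9% of all genes called either way (23.4% higher, 23.5% lower), with a median of 0.14 and a range of -0.15 to 0.46. RRP12 measured 89.7, 90.0 and 84.0 CPM and rose by 0.46 over vehicle (SE 0.039, adjusted p = 2.6e-14). UTP15 measured 55.6, 53.9 and 54.4 CPM against 43.1, 41.5 and 38.9 CPM, a rise of 0.41 (SE 0.045, adjusted p = 9.07e-11). BOP1, which with PES1 and WDR12 forms a complex needed for the large subunit, measured 87.5, 80.2 and 89.4 CPM against 65.8, 65.7 and 69.7 CPM, a rise of 0.35 (SE 0.053, adjusted p = 1.69e-07). No treated library of these 3 genes overlapped vehicle.

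The 4 that fell at 42 ug/mL were UBTF (-0.15), NOP56 (-0.15), FBL (-0.12) and NCL (-0.12), each also lower at 210 ug/mL. RRN3 was highest of its group at 0.26, NOP58 highest of the box C/D core at -0.08 (adjusted p = 0.189), NOLC1 highest of the box H/ACA group at 0.16 with DKC1 at 0.00 (adjusted p = 0.948), and MYBBP1A highest of the abundant group at 0.27. UTP20 was lowest of the small subunit factors at -0.08 (adjusted p = 0.376) and BRIX1 lowest of the large subunit factors at -0.07 (adjusted p = 0.172). MYC measured 235, 227 and 232 CPM and rose by 0.50. Of the 139 other pathway genes 56 rose and 22 fell, with a median of 0.07. Of the 79 ribosomal protein genes 51 rose and 1 fell, with a median of 0.19. Total-count scaling moved the median of all genes by -0.16 at this dose. Values of these lists and of MYC were not taken with that scaling. Mitochondrial transcripts took 17.4% to 18.2% of counts, a shift whose part in the result was not tested. Scaled by total counts alone, 5 members were higher and 13 lower at this dose and the median was -0.02; NOB1, NOLC1 and NPM1 then had log2 changes below 0.

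At 8.4 ug/mL, 14 members rose and none fell, where 8.58% of all genes rose and 16% changed either way. BOP1 rose by 0.28, RRP9 and MYBBP1A by 0.24, NOP2 by 0.20 and RRP12 by 0.19, and the other 9 called members lay between 0.11 and 0.19. MYC rose by 0.27. Without vehicle replicate 3, its own replicate 3 or vehicle replicate 1 the count was 7, 8 or 9. This direction turned with the scaling: by total counts alone no member was called higher and 12 were called lower, with a median of -0.06. Mitochondrial transcripts took 15.9% to 19.3% of counts at this dose.

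Between doses of Coptidis, without the vehicle libraries, members were called both ways, at shares near those of all genes. From 8.4 to 210 ug/mL, 14 members were higher and 11 lower, against 65.8% of all genes called either way (33% higher, 32.8% lower). The median was -0.01 (10 higher and 15 lower with upper quartile scaling). RRP12 rose by 0.66, RRN3 by 0.56, BYSL by 0.37 and UTP4 by 0.35, while UTP20 fell by 0.58, NOP56 by 0.51, FBL by 0.43 and NCL by 0.37. MYC rose by 0.65. From 8.4 to 42 ug/mL, 6 were higher and 5 lower, against 31.7%, with RRP12 at 0.26 and NOP56 at -0.17 (6 higher and 3 lower with RLE scaling).

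**Figure D3:**
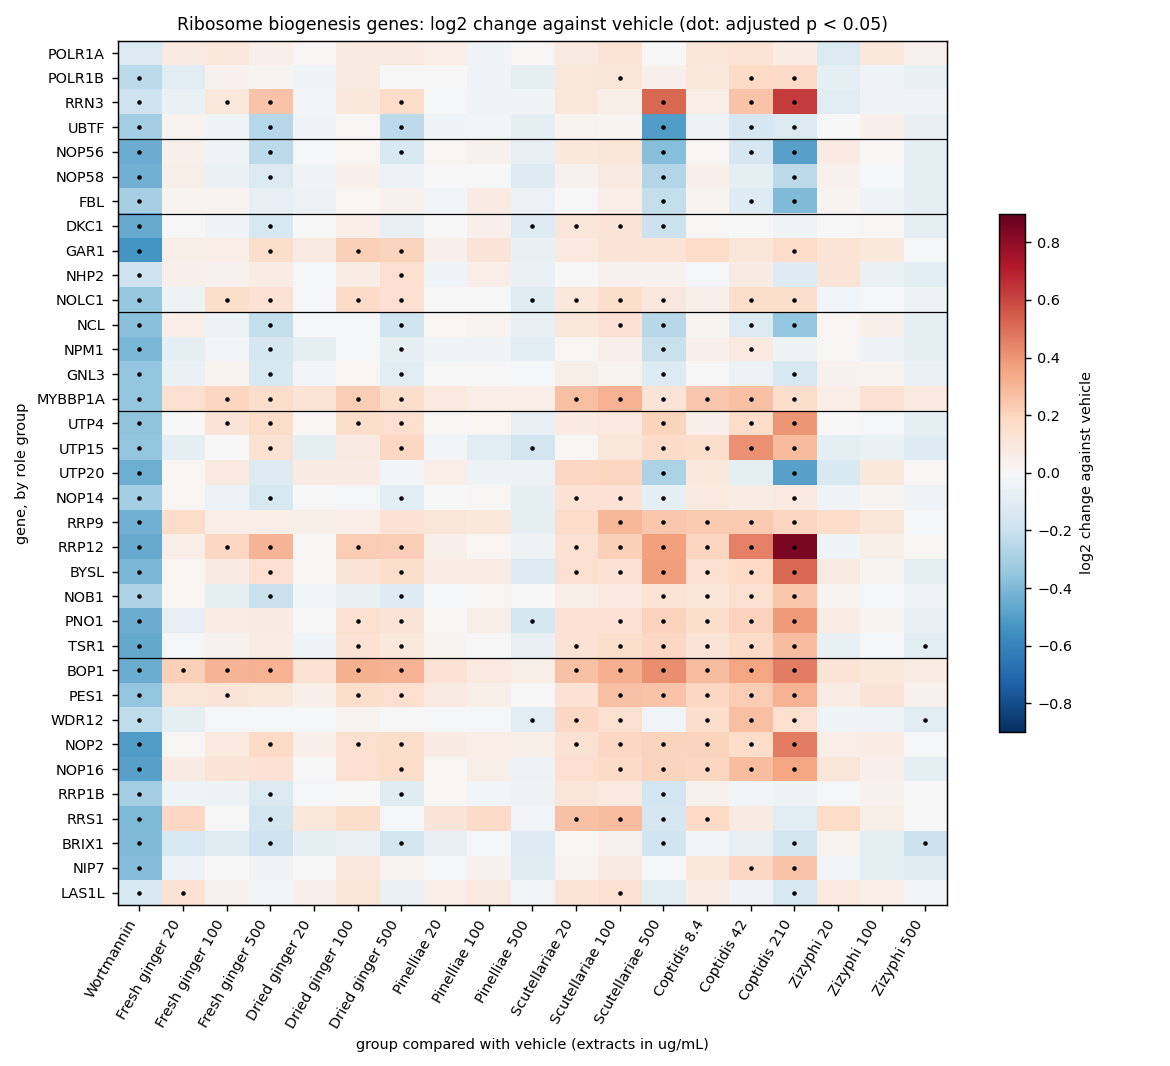
Fitted log2 change against vehicle (colour, red higher and blue lower) of the 35 members (rows, role groups divided by lines) in the 19 treatment groups (columns, extract doses in ug/mL); a dot marks an adjusted p under 0.05. The wortmannin column is lower throughout, and at the top Coptidis and Scutellariae doses RRN3, RRP12 and BYSL are higher while NOP56, FBL and UTP20 are lower.

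Scutellariae Radix also split the members at its top dose. At 500 ug/mL, 15 rose and 13 fell, to be read against 50.2% of all genes called either way (24.7% higher, 25.5% lower). The median was 0.04, the range -0.51 to 0.51, and 30 members (85.7%) had libraries that did not overlap those of vehicle, as had 60% of all genes tested. The largest changes in both directions were in the RNA polymerase I group.

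RRN3 measured 163, 159 and 164 CPM against 115, 112 and 113 CPM and rose by 0.51 (SE 0.036, adjusted p = 3.02e-17). Its pseudogenes held 7.22% of the family's counts at this dose. UBTF measured 80.5, 78.7 and 73.5 CPM against 108, 111 and 112 CPM and fell by 0.51 (SE 0.043, adjusted p = 1.58e-14). BOP1 measured 93.7, 88.8 and 86.3 CPM against 65.8, 65.7 and 69.7 CPM and rose by 0.42 (SE 0.053, adjusted p = 2.53e-09). So the factor that brings RNA polymerase I to its promoter was higher and the factor that opens the rDNA lower, with no overlap with vehicle in either.

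The members that fell were UBTF, NOP56 (-0.38), NOP58 (-0.26), FBL (-0.21), DKC1 (-0.19), NCL (-0.25), NPM1 (-0.20), GNL3 (-0.12), UTP20 (-0.28), NOP14 (-0.09), RRP1B (-0.17), RRS1 (-0.15) and BRIX1 (-0.18). DKC1 (dyskerin) is the pseudouridine synthase of the box H/ACA snoRNP, and GAR1 was highest in that group at 0.12 (adjusted p = 0.123). MYBBP1A was highest of the abundant group at 0.12. BYSL led the small subunit factors at 0.38, of which 8 of 10 rose. MYC measured 223, 235 and 225 CPM and rose by 0.48.

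In the wider pathway 52 of 139 genes rose and 32 fell at this dose. RCL1 rose by 1.02 and DDX49 by 0.40, MPHOSPH10 fell by 0.90 and BMS1 by 0.37, POLR1D rose by 0.41 and POLR1G fell by 0.48. RSL24D1 rose by 0.45 and NOL12 fell by 0.43. Of 79 ribosomal protein genes 47 rose and none fell, with a median of 0.17, and of the 12 stress and p53 genes 10 rose, GDF15 by 2.93 and CDKN1A by 2.38. Hepatocyte markers summed to 30523 to 31382 CPM against 44494 to 45093 CPM in vehicle, and fibroblast and stellate cell markers to 78.0 to 85.3 CPM against 49.4 to 53.8 CPM; their part in the result was not tested.

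At 100 ug/mL the members moved upward. Here 18 members rose and none fell, against 7.27% of all genes higher, 7.34% lower and 14.6% called either way, and all 35 log2 changes were above 0, from 0.02 to 0.33 with a median of 0.12. Libraries of 28 members (80.0%) did not overlap those of vehicle, against 33.6% of all genes tested. BOP1 measured 84.2, 81.9 and 85.9 CPM and rose by 0.33 (SE 0.053, adjusted p = 6.98e-06). MYBBP1A measured 114, 105 and 114 CPM against 86.6, 91.7 and 89.8 CPM and rose by 0.32 (SE 0.047, adjusted p = 1.06e-06). RRP9, a protein of the small subunit processome, measured 42.9, 41.8 and 47.2 CPM against 33.5, 38.0 and 35.9 CPM and rose by 0.30 (SE 0.065, adjusted p = 0.000731). All treated libraries of the 3 were above all vehicle libraries, by the least margin in RRP9.

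By role, POLR1B rose by 0.11 and UBTF was at 0.02 (adjusted p = 0.804). None of the box C/D core was called, with NOP56 highest at 0.11 (adjusted p = 0.0511) and FBL lowest at 0.06 (adjusted p = 0.44). NOLC1, the snoRNP chaperone Nopp140, rose by 0.15 and NHP2 was at 0.04 (adjusted p = 0.778). UTP4 was lowest of the small subunit factors at 0.09 (adjusted p = 0.144) and BRIX1 of the large subunit factors at 0.04 (adjusted p = 0.662), while GNL3 was lowest of the abundant group at 0.03 (adjusted p = 0.617). MYC measured 201, 196 and 206 CPM and rose by 0.30. In the wider pathway 45 of 139 genes rose and 1, MPHOSPH10 (-0.25), fell, with NOC2L at 0.34, PWP2 at 0.28 and TCOF1 at 0.24. Of the ribosomal protein genes 1 of 79, RPS2 (0.19), was called.

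At 20 ug/mL, 11 members rose and none fell, against 2.57% of all genes higher, 2.17% lower and 4.74% either way. MYBBP1A rose by 0.27, BOP1 and RRS1 by 0.26 and WDR12 by 0.19; 34 of the 35 changes were above 0. The count was 5 to 8 when any 1 library was left out, 7 with total-count scaling and 5 without a filter on low counts. MYC rose by 0.14 (adjusted p = 0.0487). Between 20 and 500 ug/mL, without vehicle, 7 members were higher and 16 lower, against 49.9% of all genes: UBTF fell by 0.54, NOP56 by 0.48, UTP20 by 0.47 and RRS1 by 0.41, and RRN3 rose by 0.41. MYC was 0.33 higher at 500 than at 20 ug/mL. Between 20 and 100 ug/mL edgeR's quasi-likelihood test called no member, against 2.12% of all genes; DESeq2 and limma-voom also called 0, and 4 members had an unadjusted p under 0.05.

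**Figure D4:**
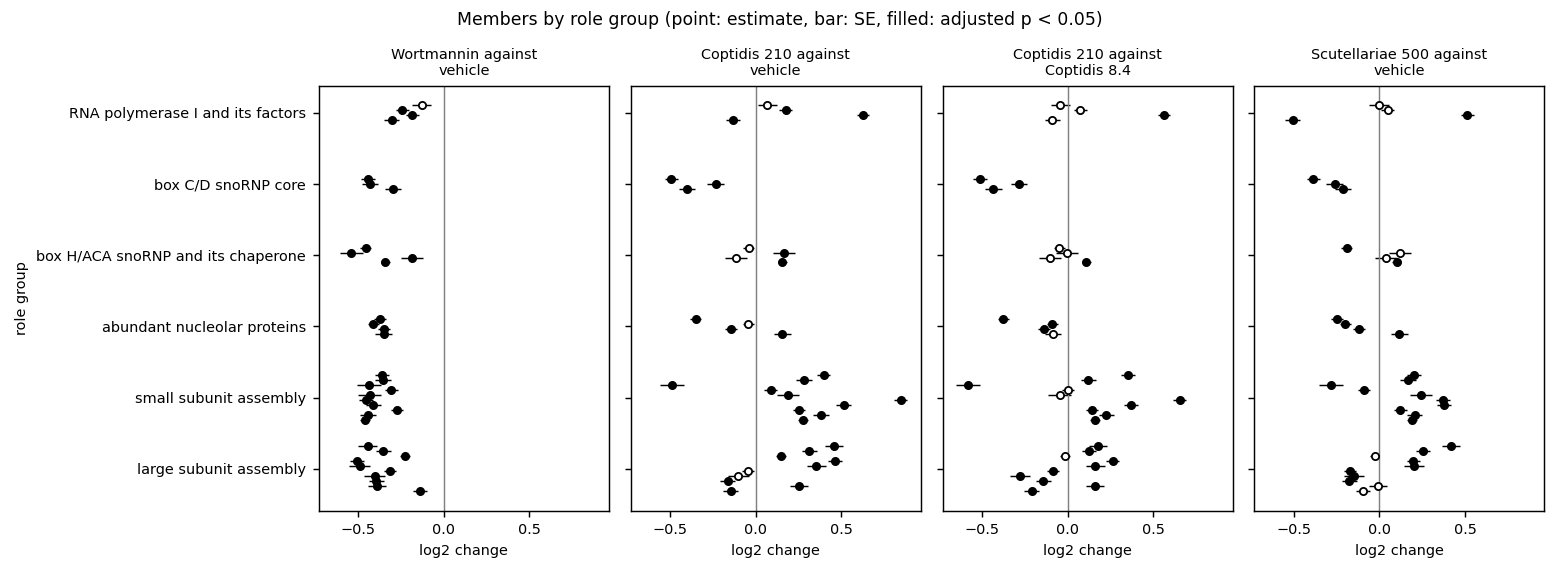
Log2 change of each member (point, with a bar for its SE; filled where the adjusted p is under 0.05) by role group, for wortmannin, Coptidis 210 ug/mL and Scutellariae 500 ug/mL against vehicle and for Coptidis 210 against 8.4 ug/mL. The box C/D core members lie below 0 in all 4 panels, while at the top Coptidis and Scutellariae doses 9 and 8 of the 10 small subunit factors lie above 0 against vehicle.

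Both gingers moved the members by small amounts in both directions. With fresh ginger (Zingiberis Rhizoma Recens) at 500 ug/mL 10 rose and 12 fell, against 46% of all genes called either way, and with dried ginger (Zingiberis Rhizoma) at 500 ug/mL 15 rose and 9 fell, against 42.4% (11 higher and 10 lower when scaled by total counts). Without the 3 libraries that stood apart 21 members were called with dried ginger. The medians were 0.02 and 0.04 and the ranges -0.25 to 0.31 and -0.24 to 0.31. Libraries of 28 and 25 members (80.0% and 71.4%) did not overlap those of vehicle, against 55.7% and 49.6% of all genes tested. BOP1 rose by 0.31 with both, UBTF fell by 0.25 with fresh and 0.24 with dried ginger, and MYC rose by 0.20 and 0.23.

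For fresh ginger, BOP1 measured 76.8, 88.8 and 84.2 CPM against 65.8, 65.7 and 69.7 CPM (SE 0.053, adjusted p = 2.49e-06). RRP12 measured 76.7, 80.9 and 79.9 CPM against 63.2, 63.9 and 65.2 CPM and rose by 0.31 (SE 0.039, adjusted p = 4.76e-09). RRN3 measured 137, 132 and 137 CPM against 115, 112 and 113 CPM and rose by 0.25 (SE 0.037, adjusted p = 7.24e-08). Each lowest treated library lay above the highest vehicle library. More members fell than rose here, and those that rose were RRN3, GAR1 (0.15), NOLC1 (0.13), MYBBP1A (0.16), UTP4 (0.17), UTP15 (0.13), RRP12, BYSL (0.15), BOP1 and NOP2 (0.18). Lowest in their groups were NOP56 (-0.23), DKC1 (-0.15), NCL (-0.22), NOB1 (-0.20) and BRIX1 (-0.19), all called, and FBL was highest of the box C/D core at -0.08 (adjusted p = 0.193).

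For dried ginger, BOP1 measured 76.2, 88.8 and 84.8 CPM (SE 0.053, adjusted p = 2.57e-06). UBTF measured 93.1, 97.6 and 89.5 CPM against 108, 111 and 112 CPM (SE 0.042, adjusted p = 6.51e-06). RRP12 measured 69.2, 79.9 and 74.4 CPM and rose by 0.22 (SE 0.039, adjusted p = 7.69e-06). Its libraries varied more than those of vehicle without overlapping them. The 9 that fell were UBTF, NOP56 (-0.13), NCL (-0.18), NPM1 (-0.09), GNL3 (-0.10), NOP14 (-0.10), NOB1 (-0.11), RRP1B (-0.11) and BRIX1 (-0.16). RRN3 (0.17), GAR1 (0.20) and MYBBP1A (0.16) were highest in their groups, FBL was at 0.04 (adjusted p = 0.551) and DKC1 at -0.08 (adjusted p = 0.059).

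In the wider pathway 36 of 139 genes rose and 24 fell with fresh ginger, and 38 rose and 18 fell with dried ginger, MPHOSPH10 falling by 0.61 in both and RCL1 rising by 0.43 and 0.35. Of 79 ribosomal protein genes none rose and 6 fell with fresh ginger, while 15 rose and none fell with dried ginger. These list counts for dried ginger include replicate 1, which stood apart, and were not taken without it. In the direct comparison of fresh with dried ginger edgeR's quasi-likelihood test called no member at 500, 100 or 20 ug/mL, where 1.83%, 0.379% and 0.0481% of all genes were called. DESeq2 and limma-voom called none either, and 7, 5 and 3 members had an unadjusted p under 0.05; the members' differences at 500 ug/mL ran from -0.16 to 0.09 (log2), which does not show that the extracts act alike.

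At the lower ginger doses fewer members were called. Fresh ginger at 100 ug/mL raised 7 and lowered none, against 12.1% of all genes higher, 10.2% lower and 22.2% either way, and dried ginger at 100 ug/mL raised 10 and lowered none, against 9.76%, 7.75% and 17.5%. By total counts alone these were 4 higher and 3 lower for fresh and 6 higher and 1 lower for dried ginger, and with upper quartile scaling 4 higher and 2 lower for fresh ginger. With fresh ginger at 100 and at 20 ug/mL the share of members called either way was near that of all genes. BOP1 led at 100 ug/mL of both gingers, at 0.31 with fresh and 0.32 with dried ginger, and RRP12 was at 0.19 and 0.23. MYC was at 0.11 (adjusted p = 0.0877) and 0.12 (adjusted p = 0.0538). At 20 ug/mL fresh ginger raised BOP1 by 0.21 and LAS1L by 0.13, and lowered none, against 5.1% of all genes called (2.75% higher, 2.35% lower), but by total counts alone 1 member was higher and 3 were lower. Both calls were lost without its replicate 3 or without vehicle replicate 1 or 2 (0 members called), and fits under other settings gave 1 to 9 members. Dried ginger at 20 ug/mL changed no member by edgeR's quasi-likelihood test, DESeq2 or limma-voom, against 0.0841% of all genes (0.024% higher, 0.0601% lower), and 4 members had an unadjusted p under 0.05; MYC was at -0.01 with fresh and -0.03 with dried ginger. Between 20 and 500 ug/mL of fresh ginger 11 members were higher and 11 lower, against 48.1%, from RRS1 at -0.35 to RRN3 at 0.31 (8 higher and 14 lower with upper quartile scaling). For dried ginger 13 were higher and 7 lower, against 41%, from UBTF at -0.20 to UTP15 at 0.27 (8 higher and 9 lower by total counts, 9 and 9 with upper quartile scaling, and 18 called without the libraries that stood apart). From 20 to 100 ug/mL, 7 were higher and 3 lower with fresh ginger, against 24.7% (4 higher and 6 lower by total counts and with upper quartile scaling), and 9 were higher with dried ginger, against 16.2%.

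Pinelliae Tuber and Zizyphi Fructus left most members uncalled. At 500 ug/mL Pinelliae lowered 5 and raised none, against 1.93% of all genes lower, 2.64% higher and 4.57% either way, and Zizyphi lowered 3 and raised none, against 1.53%, 2.09% and 3.61%. The medians were -0.07 for both, with 5 and 8 members above 0. These calls were near the threshold: fitted without a filter on low counts 0 and 1 were left, and leaving out 1 library gave 0 to 7 for Pinelliae and 1 to 3 for Zizyphi. With Pinelliae, UTP15 measured 36.3, 37.4 and 35.7 CPM against 43.1, 41.5 and 38.9 CPM and fell by 0.17 (SE 0.047, adjusted p = 0.0205). PNO1, a late small subunit factor, measured 54.8, 53.4 and 50.7 CPM against 58.9, 61.3 and 57.3 CPM and fell by 0.16 (SE 0.046, adjusted p = 0.0357). DKC1 measured 128, 132 and 122 CPM against 138, 138 and 137 CPM and fell by 0.11 (SE 0.033, adjusted p = 0.0311), and NOLC1 (-0.11) and WDR12 (-0.10) fell too. The groups did not overlap in UTP15, PNO1 or DKC1, though the margins were narrow. Libraries of 13 members did not overlap those of vehicle at 500 ug/mL. At 20 ug/mL, with 2 libraries and no member called, it was also 13. The share over all genes is not set beside these counts, so they show no result about the members.

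With Zizyphi, BRIX1, a large subunit factor, measured 47.8, 46.6 and 49.4 CPM against 55.624, 56.026 and 52.996 CPM and fell by 0.20 (SE 0.043, adjusted p = 0.00551). WDR12 measured 111, 111 and 109 CPM against 118, 119 and 117 CPM and fell by 0.10 (SE 0.028, adjusted p = 0.029). TSR1 measured 127, 125 and 122 CPM against 135, 135 and 130 CPM and fell by 0.10 (SE 0.029, adjusted p = 0.0473). MYC was at -0.05 with Pinelliae and 0.00 with Zizyphi. In the wider pathway 13 of 139 genes fell with Pinelliae and 5 with Zizyphi, and none rose; the medians of the 79 ribosomal protein genes were -0.06 with both.

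Between doses of Zizyphi, without vehicle, 7 members were lower at 500 than at 20 ug/mL and none higher, against 7.22% of all genes called either way: BRIX1 (-0.23), NHP2 (-0.21), NOP16 (-0.20), BYSL (-0.16), NOP56 (-0.16), PNO1 (-0.14) and NPM1 (-0.10). Without the 3 libraries that stood apart 1 member was called there, and leaving out 1 library at a time gave 1 to 15. For Pinelliae it was BYSL alone (-0.19), against 1.9%; that call was lost, with 0 members called, in a fit of the 2 groups, without a filter on low counts, and without either 20 ug/mL library or 500 ug/mL replicate 3. MYC was at -0.04 and -0.05 with Pinelliae at 100 and 20 ug/mL and at 0.00 and 0.07 with Zizyphi. At 100 and 20 ug/mL of either extract no member was called against vehicle, nor between those 2 doses, by edgeR's quasi-likelihood test. The members with an unadjusted p under 0.05 numbered 3 and 1 for Pinelliae and 3 and 8 for Zizyphi against vehicle, and 0 and 5 between the doses. In those comparisons limma-voom called 0, and DESeq2 called 0 except for 2 between the Zizyphi doses. All genes called there were 0.204% and 0.00601% for Pinelliae, 0.228% and 1.99% for Zizyphi, and 0.00601% and 0.0361% between the doses.

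The top doses of the 3 extracts with most calls over all genes were also compared with each other. These doses are not equal (210 ug/mL for Coptidis, 500 ug/mL for the others). The share of members called was near that of all genes for Coptidis against Scutellariae and for Scutellariae against fresh ginger. Coptidis against Scutellariae called 18 members higher and 5 lower, against 59.6% of all genes called: RRP12 was 0.48 and UBTF 0.37 higher with Coptidis, while UTP20 was at -0.20 and FBL at -0.19. By total counts alone that comparison gave 3 higher and 11 lower with a median of -0.05, and with upper quartile scaling 9 higher and 7 lower. Coptidis against fresh ginger called 20 higher and 6 lower, against 58.8%, from UTP20 at -0.37 to RRP12 at 0.54 (13 higher and 7 lower by total counts). Scutellariae against fresh ginger called 7 higher and 4 lower, against 34.8%, from UBTF at -0.25 to NOB1 at 0.32 (10 higher and 1 lower by total counts, 10 and 2 with upper quartile scaling). MYC differed by 0.45, 0.73 and 0.28 in the same order.

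Counted over the 18 comparisons of extracts with vehicle, which share the vehicle libraries, 14 members were called only higher, 8 only lower, 12 in both directions and 1, POLR1A, in none. As shares these were 40.0%, 22.9%, 34.3% and 2.86%, against 34.8%, 34.0%, 14.2% and 17.1% of all genes tested. The tally rests on TMM scaling. With total counts the calls made at Coptidis 42 and 8.4 ug/mL and at fresh ginger 20 ug/mL were mostly lower instead of mostly higher. Few single calls reversed with that scaling: in the 9 main comparisons 4 of 186 did, and 29 lost the threshold. The share of calls that were higher went from 69% to 48.1% at Coptidis 210 ug/mL. At fresh ginger 100 ug/mL it went from 100% to 57.1%. BOP1 was higher in 11, RRP12 and MYBBP1A in 10 each, and NOP2 and NOLC1 in 9 each. UBTF, NOP56, NCL and BRIX1 were lower in 5 each. The only-lower members included all 3 box C/D core members, and no small subunit factor but UTP20.

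**Figure D5:**
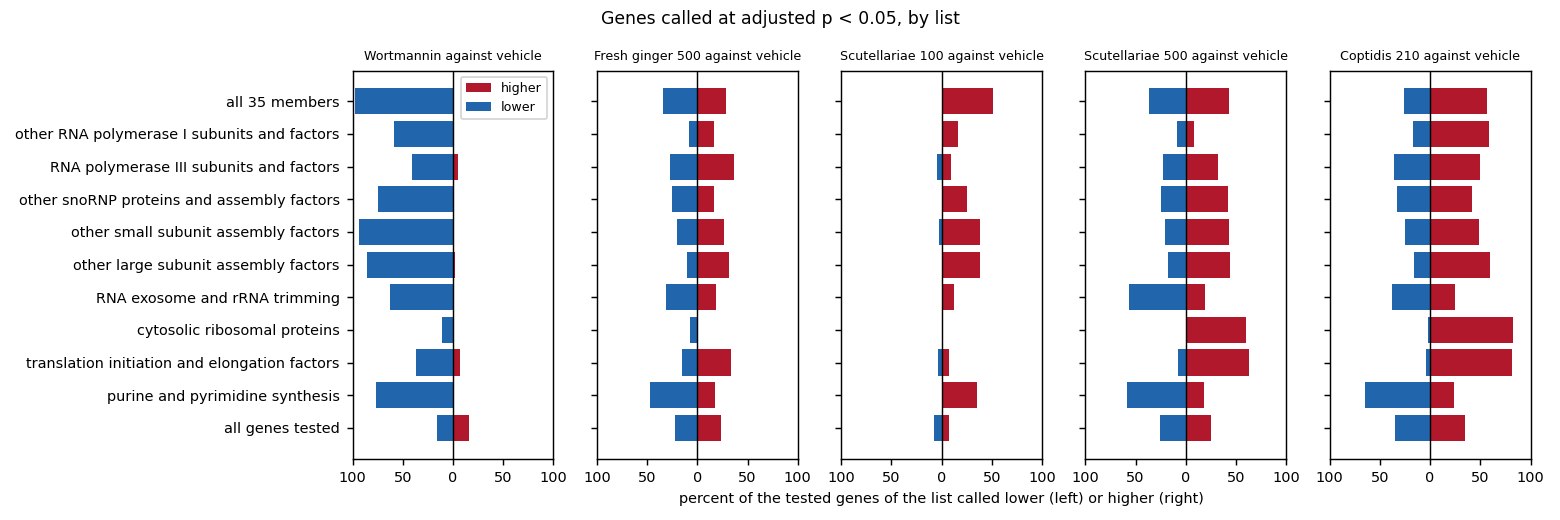
Percent of the tested genes of each list that were called higher (right, red) or lower (left, blue) at an adjusted p under 0.05, for the members, the related lists and all genes tested (rows), in 5 comparisons with vehicle (panels, extract doses in ug/mL). With wortmannin the bars of the members and the other assembly lists run to the lower side while few of the 79 ribosomal protein genes are called (9), and at Coptidis 210 ug/mL 65 of those 79 are called higher.

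A pair of features that the choice of members did not use are given as descriptions. In all, 6 members hold snoRNA genes within them on the same strand (GENCODE 29): GNL3 6, NOP56 5, NOP58 4, NCL 3, DKC1 2 and TSR1 2. At Coptidis 210 ug/mL, 1 of these 6 rose and 4 fell, with a median of -0.19, and 19 of the other 29 rose and 5 fell, with a median of 0.17; of all genes tested 34.8% rose and 34.5% fell, and by total counts alone the members as a whole were 13 higher and 14 lower. At Scutellariae 500 ug/mL it was 1 up and 5 down (-0.22) against 14 up and 8 down (0.10), where 24.7% of all genes rose and 25.5% fell, and with wortmannin all 6 fell (-0.44), as did 28 of the other 29 (-0.35). A related list of snoRNA host transcripts, 14 of them tested, went otherwise at both extract doses. There 9 rose and 2 fell at Coptidis 210 ug/mL (median 0.25), and 8 rose and 2 fell at Scutellariae 500 ug/mL (0.18). With wortmannin 4 of that list rose and 5 fell (-0.10). NOP56 and NOP58 also belong to the box C/D core, so snoRNA content and role group overlap, and the part of each was not tested. The deposited counts do not separate spliced from intronic reads. Members with an E-box in the promoter window, such as those printed above, had a median of 0.25 at Coptidis 210 ug/mL, with 8 of 10 higher and 2 lower, and the 19 without had 0.07, with 9 higher and 6 lower, beside the same 34.8% and 34.5% of all genes. At Scutellariae 500 ug/mL the medians were 0.20 and -0.01, and with wortmannin -0.39 and -0.35. The E-box members include the small subunit factors UTP4, UTP20, NOP14, RRP9, BYSL and PNO1. Of the 10 small subunit factors 9 rose at Coptidis 210 ug/mL. E-box and role group thus overlap, and the part of each was not tested. RRP12 and 5 other members had no promoter window in the table.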

How the data were processed

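RNA of HepG2 cells was sequenced, and the authors deposited expected counts per Ensembl gene from RSEM (59 of 267 table columns were used; 208 belong to no sample here and were left out). FastQC 0.11.9, Trim Galore 0.6.5, STAR 2.7.3a, RSEM 1.3.3 and GRCh38 are named in the submitters' processing notes; for the annotation and strand setting used, no source here gives a value. Among the deposited values above 0, 24.44% were not whole, and all were rounded. Without strand information, reads of a member and of an opposite-strand gene that shares exonic bases with it cannot be told apart; this touches 16 members. Symbols and coordinates came from GENCODE 29 and promoter windows from RefSeq, where 29 of 35 members matched; 6 of them had 2 windows, of which the first listed was used.

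A single model with 20 group means was fitted to 59 libraries with edgeR 4.0.16 in R 4.3.3 (filterByExpr, TMM scaling, quasi-likelihood test, two-sided, Benjamini-Hochberg over 16641 genes, called at adjusted p under 0.05), and CPM are TMM-scaled. The calculation was tested on simulated counts for wortmannin against vehicle, with 50 genes changed at each size. Of these, 54% were called at a log2 change of 0.2 and 100% at 0.4. Among the unchanged of the 16247 genes run, 10 were called. Far fewer genes were changed than were called with wortmannin in the data, so these rates need not hold there. Smaller changes than 0.2 were not simulated. Members and lists were chosen with earlier results of these data known. For each main comparison the text names, per role group, the members with the highest and lowest log2 change, called members that moved against the majority, and library values of the 3 with the largest change; from other lists at most 2 genes each way; and MYC throughout. Alternatives were DESeq2 1.42.0, limma-voom (limma 3.58.1), other scalings, no filter, a 0.2 log2 minimum, single-comparison fits, the replicate number as a block, and leaving out libraries. Same-numbered libraries of a treated group and vehicle did not deviate together: over 56 pairs r was -0.062 to 0.059, none over 0.1. Pairs among treated groups were not examined in this way.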

Additional observations from a re-analysis of the deposited data

How the results depend on the processing

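Across the 9 main comparisons 186 calls of single members were refitted. The number that kept direction and threshold was 186 with limma-voom, 185 with DESeq2, 185 with RLE scaling, 181 without the 3 libraries that stand apart, 174 in fits of 2 groups, 171 with upper quartile scaling, 159 without a filter on low counts and 153 with total counts. Of 1116 refits without 1 library, 116 lost the call. Replicate numbers showed no pairing of treated libraries with vehicle, and pairing among treated groups was not examined by correlation. With the number as a replicate block 185 of 186 calls were kept and no count of members moved by over 1.5 times (34 with wortmannin, 29 with Coptidis 210 ug/mL, 28 with Scutellariae 500 ug/mL).

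Scaling by total counts moved the median of all genes by -0.12, -0.16 and -0.15 at Coptidis 210, 42 and 8.4 ug/mL and turned the members' median to -0.0192 at 42 ug/mL, -0.0579 at 8.4 ug/mL and -0.0547 for Coptidis against Scutellariae. It also turned NOP14 at 210 ug/mL to -0.0314, and at 42 ug/mL NOB1 to -0.0192, NOLC1 to -0.00486 and NPM1 to -0.0777. Counts of members called became 14 for Coptidis against Scutellariae, 2 for Pinelliae 500 against 20 ug/mL, 7 for Scutellariae 20 ug/mL, 3 for dried ginger 100 against 20 ug/mL, 4 for fresh ginger 20 ug/mL and 12 for Zizyphi 500 against 20 ug/mL.

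A minimum log2 change of 0.2 besides left, of the calls against vehicle, 18, 10 and 3 for Coptidis 210, 42 and 8.4 ug/mL, 15, 6 and 3 for Scutellariae 500, 100 and 20 ug/mL, 6, 1 and 1 for fresh ginger 500, 100 and 20 ug/mL, 4 and 4 for dried ginger 500 and 100 ug/mL, and 0 for Pinelliae and Zizyphi 500 ug/mL. Between doses it left 13 and 2 for Coptidis 210 and 42 against 8.4 ug/mL, 8 and 1 for fresh ginger and 3 and 1 for dried ginger 500 and 100 against 20 ug/mL, 0 for Pinelliae and 2 for Zizyphi. Between extracts it left 5 (Coptidis against Scutellariae), 15 (Coptidis against fresh ginger) and 4 (Scutellariae against fresh ginger).

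Fits of 2 groups gave 0 for Pinelliae 500 ug/mL against either vehicle or 20 ug/mL, 17 for dried ginger 100 ug/mL, 15 and 13 for dried ginger 100 and 500 against 20 ug/mL, 4 for fresh ginger 20 ug/mL, 1 for Zizyphi 100 ug/mL, 5 for Zizyphi 500 ug/mL and 0 for Zizyphi 500 against 20 ug/mL. DESeq2 gave 3 for Pinelliae 500 against 20 ug/mL (limma-voom 2), 7 for fresh ginger 20 ug/mL, 5 for Zizyphi 500 ug/mL, and 13 and 2 for Zizyphi 500 and 100 against 20 ug/mL. No filter gave 0 for both Pinelliae 500 ug/mL comparisons, 5 for Scutellariae 20 ug/mL, 5 and 13 for dried ginger 100 and 500 against 20 ug/mL, 4 for fresh ginger 100 ug/mL and 5 against 20 ug/mL, 3 for Zizyphi 100 against 20 ug/mL, 1 for Zizyphi 20 ug/mL and 1 for Zizyphi 500 ug/mL. Without 3 libraries that stand apart (dried ginger 500 ug/mL replicate 1, Pinelliae 100 ug/mL replicate 3, Zizyphi 20 ug/mL replicate 1) the counts were 3 for Pinelliae 500 against 20 ug/mL, 1 for Scutellariae 100 against 20 ug/mL, 17 for Scutellariae 20 ug/mL, 9 for fresh ginger 20 ug/mL and 1 for Zizyphi 500 against 20 ug/mL. The cause of these shifts was not tested.

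Leaving out 1 library gave, with those that moved a count by over 1.5 times named: 7 to 14 for Coptidis 8.4 ug/mL (its replicate 3 and vehicle 1 and 3: 8, 9 and 7); 0 to 7 for Pinelliae 500 ug/mL (its replicates 1 and 3: 1 each; vehicle 1, 2 and 3: 0, 1 and 3) and 0 to 3 against 20 ug/mL (500 ug/mL replicates 2 and 3: 3 and 0; either 20 ug/mL library: 0). It gave 5 to 8 for Scutellariae 20 ug/mL (its replicates 1 and 3: 5 and 7; vehicle 1, 2 and 3: 6, 5 and 5), 5 to 8 for dried ginger 100 against 20 ug/mL (100 ug/mL replicate 1: 5), 4 to 6 for fresh ginger 100 ug/mL (its replicate 2 and vehicle 1: 4 each) and 5 to 11 against 20 ug/mL (100 ug/mL replicate 1: 6; 20 ug/mL replicates 1 and 3: 6 and 5). Fresh ginger 20 ug/mL gave 0 to 4 (its replicates 2 and 3: 4 and 0; vehicle 1, 2 and 3: 0, 0 and 1), and fresh against dried ginger at 500 ug/mL 0 to 2 (dried replicates 2 and 3: 2 each). Zizyphi gave 1 to 3 at 500 ug/mL (any of its libraries, or vehicle 1 or 2: 1), 0 to 7 at 20 ug/mL (its replicate 3: 7), 0 to 8 for 100 against 20 ug/mL (20 ug/mL replicate 3: 8) and 1 to 15 for 500 against 20 ug/mL (20 ug/mL replicates 1, 2 and 3: 1, 3 and 15; 500 ug/mL replicates 2 and 3: 1 and 2). The smallest count of any member in any library was 478, for GAR1, and with 2 or 3 libraries a group their number limits the precision.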
